A study of Mus musculus with 12 samples.

Results

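Interleukin-33 and its relatives of the interleukin-1 family were followed here by 9 genes: the ligands Il33, Il1a, Il1b and Il18, the receptor antagonist Il1rn, the receptors Il1r1 and Il1rl1, the shared receptor subunit Il1rap and the decoy receptor Il1r2. A probe set was taken when the array's gene annotation gave it one of these symbols, and 15 of the 45101 probe sets on the array met this rule. They covered 8 of the 9 genes, and the brightest probe set of each gene is its main value. No probe set carried the symbol Il1rl1, alone or with others, in the annotation used, the gene of the interleukin-33 receptor ST2, which was not analysed here. All 8 covered genes were among the 14163 genes tested, and 12 of their 15 probe sets passed the filter on low signals.

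The tissue was epithelium cut by laser capture from the conjunctival fornix of mice, the fold in which the membrane lining the eyelid turns onto the eyeball. The groups were Klf4CN at postnatal day 14 (a conditional knockout of Klf4, a zinc-finger transcription factor of surface epithelia) and wild type at postnatal days 9, 14 and 20 (PN9, PN14 and PN20), each with 3 arrays. All mice were of a mixed background, and the labels name neither the Cre driver nor the cells in which Klf4 was deleted. The study describes its samples as independent but ties none to an animal, so p-values reflect how far samples of a group differ, and this spread may be technical. RNA was amplified in a pair of transcription rounds before hybridisation to Affymetrix arrays, and values are linear array signals, brought to a common median. A signal cannot be compared between probe sets, and the number of arrays limits the precision. Because the arrays measure bulk RNA, fewer cells of a type and less RNA per cell cannot be told apart.

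Interleukin-33 is stored in the nuclei of epithelial and endothelial cells, is released on injury, and signals through ST2 paired with the Il1rap product to mast cells, group 2 innate lymphoid cells and macrophages. Interleukin-1α and interleukin-1β bind the Il1r1 product together with the Il1rap product, the antagonist encoded by Il1rn competes for the same receptor, and the Il1r2 product binds ligand without signalling. Interleukin-18 has its own receptor pair, and, like interleukin-1β, is made as a precursor that caspase-1 cleaves.

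Klf4 itself read 10923, 8815 and 7417 on the arrays labelled Klf4CN, against 4385, 6824 and 5285 on the PN14 arrays, so its signal was not lower there. The sources used here give neither the deleted part of Klf4 nor the place of the probe set within the gene, so this signal does not check the label, and each Klf4CN direction given here is that of the arrays so labelled. The third Klf4CN array stood apart. Its summed endothelial and mural signal was 20653 against 10161 and 9641 on the other Klf4CN arrays, its muscle sum 51995 against 20903 and 19403, and its epithelial sum 32918 against 52215 and 54551. Results that rest on it are given with and without it.

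Il33 rose at both steps of wild-type maturation and was higher in Klf4CN. Il1rn, Il1a and Il18 also rose over the whole interval to PN20, while Il1b, Il1r1, Il1r2 and Il1rap passed the test in no comparison. The plot of signals by array shows every main probe set.

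**Figure D1:**
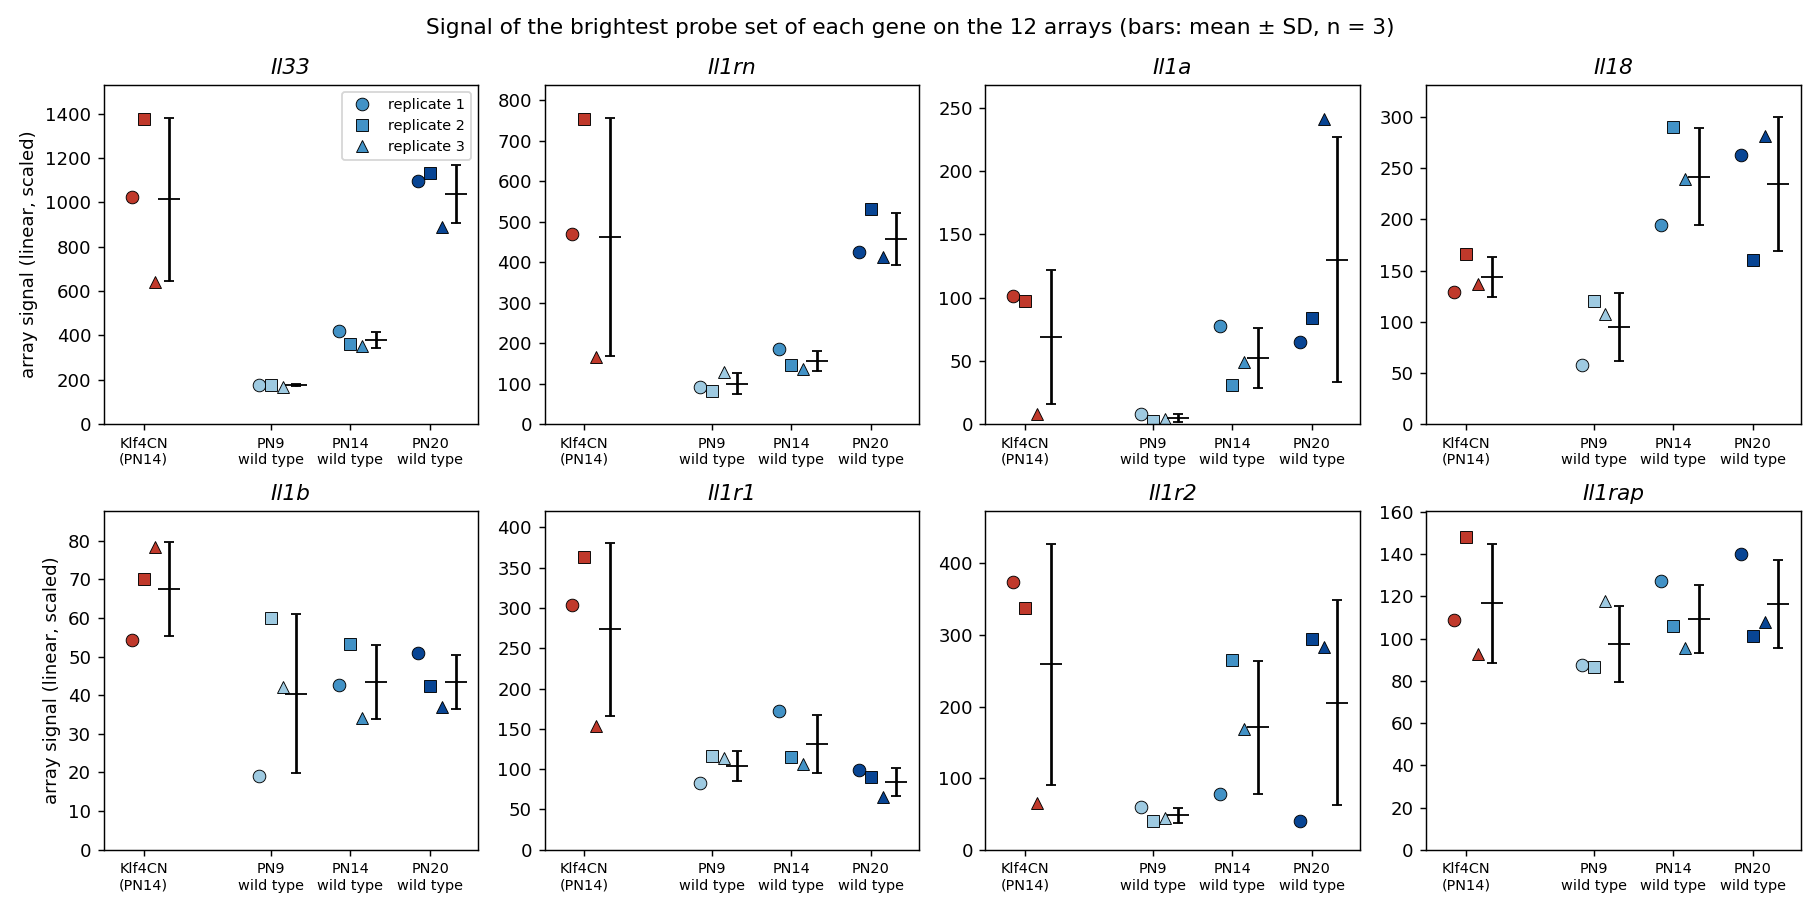
Linear array signal of the main probe set of each of the 8 covered genes (y axis, scaled signal) on the 3 arrays of each group, with Klf4CN at the left and the wild-type ages to its right; symbols mark replicates and bars give the mean ± SD (n = 3). The Il33 points of PN9, PN14 and PN20 occupy separate ranges, and the third Klf4CN array lies low for Il33, Il1rn, Il1a, Il1r1 and Il1r2.

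Il33 had signals of 178, 178 and 169 at PN9, 419, 363 and 350 at PN14, and 1094, 1132 and 889 at PN20. No array of an earlier age reached any array of a later one. PN14 averaged 377 ± 36.6 against 175 ± 4.90 at PN9 (SD, n = 3 each), a 2.06-fold difference (log2 1.04 ± 0.24 SE, adjusted p = 0.0205, limma). PN20 averaged 1038 ± 131, which was 2.67-fold above PN14 (log2 1.42 ± 0.24 SE, adjusted p = 0.0135) and 5.5-fold above PN9 (log2 2.46 ± 0.24 SE, adjusted p = 4.21e-05, limma). Il33 rose in each interval by more than its spread between arrays. Without PN9 replicate 1 or 2 or PN14 replicate 1 or 2, the adjusted p of PN14 against PN9 was 0.0683, 0.0552, 0.0834 and 0.0597, and without PN14 replicate 1 or 2 or PN20 replicate 1 or 2, that of PN20 against PN14 was 0.0529, 0.0504, 0.0691 and 0.0795. These comparisons share arrays with one another and are not independent.

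The Klf4CN arrays read 1025, 1376 and 639 for Il33, against 419, 363 and 350 on the PN14 arrays. All 3 Klf4CN arrays lay above all 3 PN14 arrays, and the lowest was replicate 3. Klf4CN averaged 1013 ± 369 and wild type 377 ± 36.6 (SD, n = 3 each), a 2.51-fold difference (log2 1.33 ± 0.24 SE, 95% interval 0.82 to 1.83, adjusted p = 0.0455, limma). This adjusted p lies close to the threshold of 0.05: it was 0.0519 with no filter on low signals, and leaving out any array other than Klf4CN replicate 3 took it to between 0.0552 and 0.248. Without that array the log2 difference was 1.62 (adjusted p = 0.00278).

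RefSeq lists more than 1 start site for Il33, and its promoter windows (250 bases before to 50 after each start, build GRCm38.p6, plus strand) are printed with the first window of Il1rn, the gene whose values lay nearest to those of Il33. Klf4 and its relatives are known to bind CACCC-containing elements, so CACCC or its reverse complement GGGTG is in capitals.
Il33 start 1, chr19:29924863-29925162: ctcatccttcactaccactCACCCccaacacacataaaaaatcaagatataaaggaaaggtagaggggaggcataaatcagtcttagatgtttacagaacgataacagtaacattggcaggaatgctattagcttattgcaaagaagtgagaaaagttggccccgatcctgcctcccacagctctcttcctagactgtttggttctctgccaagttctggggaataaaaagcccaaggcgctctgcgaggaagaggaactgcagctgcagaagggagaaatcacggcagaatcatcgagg
Il33 start 2, chr19:29945540-29945839: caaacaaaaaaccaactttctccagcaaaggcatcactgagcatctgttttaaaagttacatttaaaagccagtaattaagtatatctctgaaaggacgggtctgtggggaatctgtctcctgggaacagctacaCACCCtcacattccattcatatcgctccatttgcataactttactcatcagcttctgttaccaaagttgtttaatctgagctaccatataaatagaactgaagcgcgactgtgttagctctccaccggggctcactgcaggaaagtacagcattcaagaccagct
Il1rn start 1, chr2:24336610-24336909: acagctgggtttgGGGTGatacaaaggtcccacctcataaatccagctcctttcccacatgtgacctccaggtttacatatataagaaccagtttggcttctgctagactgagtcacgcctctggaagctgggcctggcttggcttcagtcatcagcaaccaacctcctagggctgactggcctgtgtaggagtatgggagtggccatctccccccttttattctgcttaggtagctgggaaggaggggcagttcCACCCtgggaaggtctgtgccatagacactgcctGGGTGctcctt
Counted from the start site, the match in the first Il33 window begins at base -231 and that in the second at base -115. The Il1rn window has 3 matches, beginning at bases -237, 5 and 39, and the windows of the other 2 Il1rn starts have none. The printed Il1rn window also holds TGANTCA, the AP-1 element in which N is any base, which is its own reverse complement and overlaps no capital letters. CACCC on either strand stands in 57.5% of all 32851 promoter windows of this length and TGANTCA in 7.81%. Over all 9 genes, 9 of 14 windows hold CACCC and 2 hold TGANTCA. A match of letters describes the window and does not show a binding site.

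Il1rn, which encodes the interleukin-1 receptor antagonist, had signals of 91.4, 80.5 and 128 at PN9, 185, 145 and 137 at PN14, and 425, 530 and 413 at PN20. The arrays of the 3 ages did not overlap. PN20 averaged 456 ± 64.6 against 100 ± 24.9 at PN9 (SD, n = 3 each), a 4.11-fold difference (log2 2.04 ± 0.38 SE, adjusted p = 0.0021, limma), whereas the steps from PN9 to PN14 (log2 0.58) and from PN14 to PN20 (log2 1.46) had adjusted p of 0.362 and 0.072, the later step 0.0355 without Klf4CN replicate 2 and 0.00403 without Klf4CN replicate 3, which enter the shared estimate of the spread. A second Il1rn probe set read 41.8, 52.3 and 76.0 at PN9, 157, 163 and 106 at PN14, and 517, 493 and 594 at PN20, with log2 2.94 for PN20 against PN9. The third was called Present on no array.

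In Klf4CN, Il1rn read 470, 752 and 165 on the 3 arrays, against 185, 145 and 137 on the PN14 arrays. Replicate 3 fell among the wild-type values, and the others stood above all of them. The difference was 2.39-fold and did not pass the test (log2 1.26 ± 0.38 SE, adjusted p = 0.331, limma). Without that array it was log2 1.84 and passed (adjusted p = 0.00555). The second Il1rn probe set read 427, 487 and 79.7 in Klf4CN, against 157, 163 and 106 at PN14. There replicate 3 lay below all PN14 arrays, and the log2 difference over all arrays was 0.83 (adjusted p = 0.712, limma).

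Il1a, the gene of interleukin-1α, was not called Present on any PN9 array, where it read 8.19, 2.01 and 3.77. It read 77.8, 30.7 and 48.9 at PN14 (Present on 2 arrays) and 65.0, 83.9 and 241 at PN20 (Present on 3). Every PN14 and PN20 array exceeded every PN9 array, while PN14 and PN20 overlapped. The fitted log2 difference of PN20 against PN9 was 2.64 (95% interval 1.47 to 3.81, adjusted p = 0.00374, limma). It moved between 1.6 and 4.44 over the settings tried. With PN9 arrays raised to the lowest signal among probe sets Present on all 3 PN9 arrays, the estimate was 5.59-fold. This is not a lower limit. In Klf4CN, Il1a read 101, 97.6 and 7.58, against 77.8, 30.7 and 48.9 at PN14, a log2 difference of 0.05 with a 95% interval of -1.13 to 1.22.

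Il18, whose product is a ligand matured by caspase-1, read 57.4, 120 and 108 at PN9, 195, 290 and 240 at PN14, and 263, 160 and 282 at PN20. All PN14 arrays lay above all PN9 arrays, and PN20 overlapped PN14. PN14 averaged 242 ± 48.0 against 95.2 ± 33.2 at PN9 (SD, n = 3 each), a 2.37-fold difference (log2 1.24 ± 0.27 SE, adjusted p = 0.016, limma). PN20 stood 2.28-fold above PN9 (adjusted p = 0.00604) and differed from PN14 by log2 -0.06 (95% interval -0.63 to 0.51). Whether the earlier step was larger than the later one was not tested. Leaving out PN9 replicate 1 or PN14 replicate 2 took the adjusted p of PN14 against PN9 to 0.0721 or 0.0675.

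Klf4CN arrays read 129, 166 and 137 for Il18, against 195, 290 and 240 at PN14. Every Klf4CN array was below every PN14 array. The mean was 144 ± 19.6 in Klf4CN and 242 ± 48.0 in PN14 (SD, n = 3 each), but the log2 difference of -0.68 ± 0.27 SE did not pass over all genes (adjusted p = 0.498, limma).

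Il1b, the gene of interleukin-1β, was dim at every age: 19.0, 60.1 and 42.1 at PN9, 42.7, 53.3 and 34.1 at PN14, and 50.8, 42.3 and 37.0 at PN20, with 3, 0 and 2 Present calls. The ages overlapped throughout. In Klf4CN it read 54.2, 70.0 and 78.3, against 42.7, 53.3 and 34.1 at PN14, higher on all arrays. The 1.41-fold difference did not pass (log2 0.49 ± 0.27 SE, adjusted p = 0.643, limma). No PN14 array was called Present, and the fold is an estimate, not a lower limit.

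Among the receptors, Il1r1, the signalling receptor of interleukin-1, read 83.1, 116 and 114 at PN9, 172, 115 and 106 at PN14, and 98.5, 89.8 and 64.9 at PN20. PN20 lay below PN14 on all arrays (log2 -0.54 ± 0.28 SE, adjusted p = 0.366, limma). In Klf4CN it read 303, 363 and 154, against 172, 115 and 106 at PN14, and again replicate 3 was the array that overlapped wild type. The 1.90-fold difference did not pass (log2 0.93 ± 0.28 SE, adjusted p = 0.336), but passed without that array (log2 1.27, adjusted p = 0.0393). A second Il1r1 probe set was called Present on no array and did not pass the filter.

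Il1r2, the decoy receptor, varied widely between arrays of a group: 78.6, 265 and 169 at PN14, 39.9, 294 and 283 at PN20, and 374, 337 and 65.4 in Klf4CN. The 3 PN9 arrays were closer together, at 60.1, 40 and 44.0. PN14 exceeded PN9 on all arrays, but log2 1.42 ± 0.66 SE did not pass (adjusted p = 0.187, limma). Fitted on those groups alone it had an adjusted p of 0.0287. Il1rap, the subunit that the interleukin-33 and interleukin-1 receptors share, had 5 probe sets, of which 3 passed the filter. The main one was Present on all 12 arrays. Its group means were 117 in Klf4CN and, over the wild-type ages, 97.3 (PN9), 109 (PN14) and 117 (PN20). Its log2 differences were 0.15 for PN14 against PN9, 0.08 for PN20 against PN14 and 0.07 for Klf4CN against PN14, the last with a 95% interval of -0.39 to 0.52. The fainter kept probe sets gave log2 0.24 and 0.49 for PN14 against PN9. For PN20 against PN14 they gave -0.15 and -0.30, and neither passed. The fainter of them was called Present on no array.

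**Figure D2:**
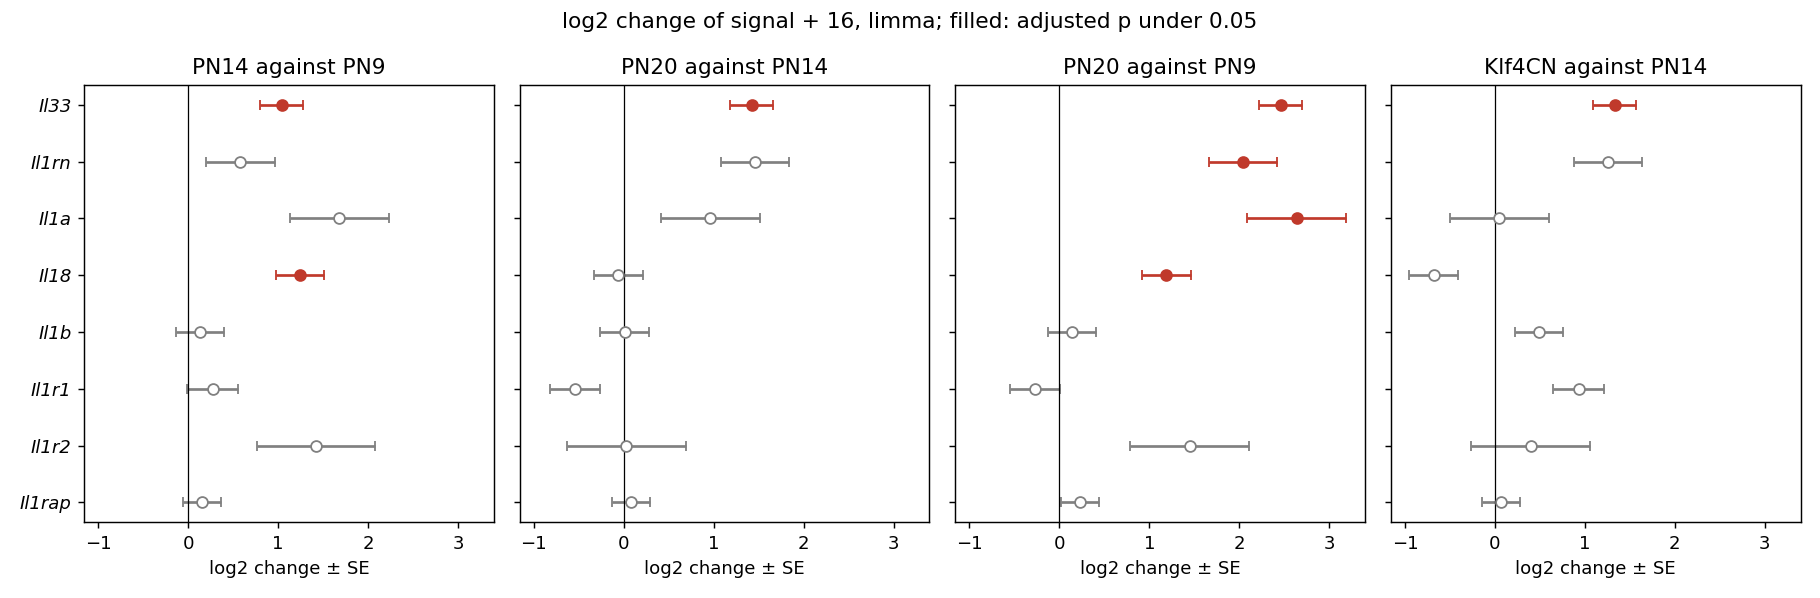
Log2 change of signal + 16 (x axis, points with ± SE from limma) for each covered gene in the comparisons PN14 against PN9, PN20 against PN14, PN20 against PN9 and Klf4CN against PN14; filled points had an adjusted p under 0.05. Il33 is filled in each panel, Il18 in the panels against PN9, and Il1rn and Il1a in PN20 against PN9.

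Counted together, 2 of 8 genes rose in PN14 against PN9 (Il33 and Il18), where 4.34% of all genes tested were called higher. In PN20 against PN14 only Il33 of the 8 rose, with 0.671% of all genes called higher. In PN20 against PN9, 4 of 8 rose (Il33, Il1rn, Il1a and Il18), beside 13.5% of all genes. Of the 8 genes, 1 (Il33) rose in Klf4CN against PN14, beside 0.0777% of all genes. None of the 8 fell in any of these comparisons, in which 2.66%, 0.678%, 10.8% and 0.106% of all genes fell. By arrays alone, 5 of 8 genes were higher on every PN14 than on every PN9 array (17.0% of all genes), and 4 were so at PN20 against PN9 (25.2%). Between PN20 and PN14, 2 were higher (16.2%) and 1 lower (14.2%) on all arrays. Between Klf4CN and PN14, 2 were higher (6.47%) and 1, Il18, lower (6.63%). The median log2 change of the 8 genes was 0.81, 0.05, 1.32 and 0.45 in this order, and that of all genes tested 0.01, 0.01, 0.02 and 0.00. An F test over the wild-type ages called the same 4 genes that passed PN20 against PN9, with adjusted p from 0.000128 for Il33 to 0.0112 for Il1a, and 20.1% of all genes.

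The authors' deposited table scores each probe set by its 9 array-by-array comparisons between groups, so that 9 means higher on every pair. In the authors' deposited table Il33 scored 9 in PN14 against PN9, in PN20 against PN14, in PN20 against PN9 and in Klf4CN against PN14, and met the deposited rule each time; that rule also asks for Present calls, no overlap and a mean difference over 2-fold. In the authors' deposited table Il18 scored -9 in Klf4CN against PN14 without reaching the fold limit. The main Il1rn probe set scored 6 there, and met the rule only in PN20 against PN14 and PN20 against PN9. The second Il1rn probe set met it in these comparisons and also in PN14 against PN9, with a score of 7. In the authors' deposited table Il1r2 scored 8 in PN14 against PN9 and met the rule there. The share of all probe sets that met the rule was 3.14%, 1.74%, 7.23% and 0.494% in the order of the comparisons above.

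The course of Il33 over the 12 arrays was nearest to that of Il1rn. After centring each gene, the root mean square difference of log2 values was 0.33 between Il33 and Il1rn. The median difference of Il33 from all other genes tested was 1.09, and Il33 itself had an SD of 1.09. Nearest genes were sought among 13390 genes, with clone names left out. The next nearest were Insig2, which restrains sterol synthesis (0.38), Mphosph6, an RNA-exosome cofactor (0.39), the chemokine gene Ccl6 (0.39), Lrba (0.41), the ERK phosphatase gene Dusp6 (0.42), Nabp1 (0.42) and Nadk2 (0.44). The remaining members stood farther away, from 0.74 for Il1a to 1.0 for Il1r1. The genes nearest to Il1a were Nfkbiz (0.38), Phlda1 (0.41) and Tnf (0.41), of which Tnf was Present on no array at PN9 or PN14, 1 at PN20 and 2 in Klf4CN, so that much of its distance rests on dim signals. The genes nearest to Il18 were Syk (0.29), Hipk2 (0.29) and Napg (0.30). Lpar3 (0.27), Pmaip1 (0.31) and Btbd3 (0.31) were nearest to Il1rn. These distances describe shared arrays and carry no test.

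**Figure D3:**
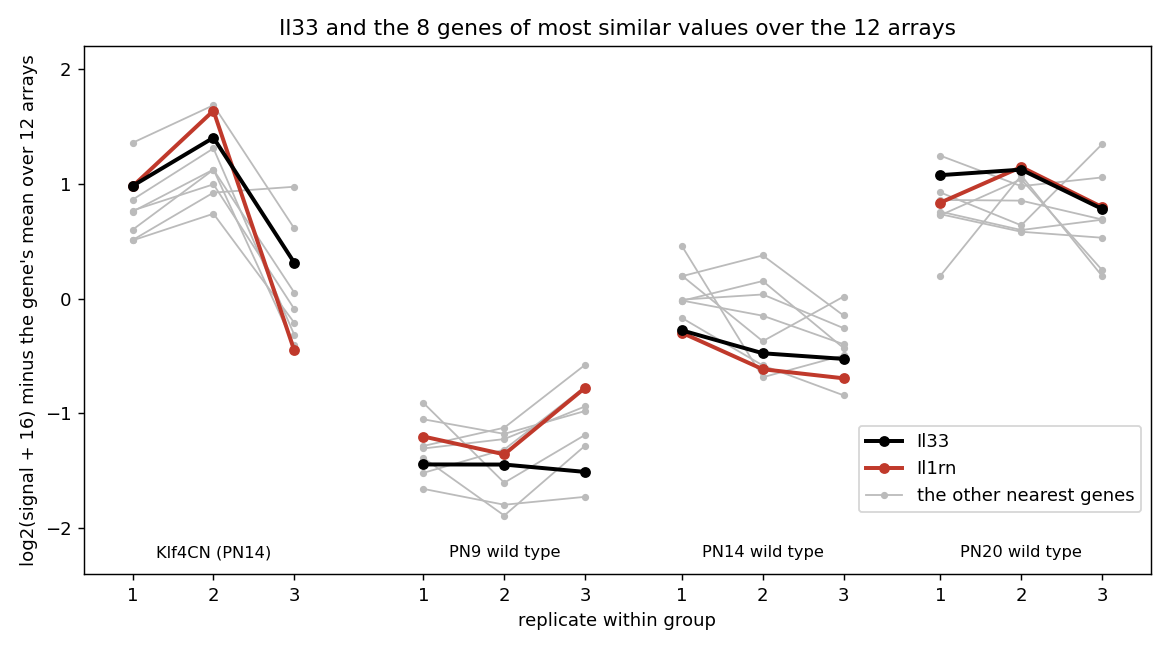
Log2(signal + 16) minus the gene's mean over the 12 arrays (y axis) for Il33 in black, Il1rn in red and the other nearest genes in grey, by replicate within each group (x axis); lines only join the points of a gene, since replicates have no order. Il33 and Il1rn lie lowest at PN9 and highest in Klf4CN replicate 2, and part most on Klf4CN replicate 3.

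Of 20 listed genes that interleukin-1 is known to induce, all had a probe set and 13 were tested. Il6, Ccl2, Ccl20, Ptgs2, Csf2, Csf3 and Nos2 did not pass the filter on low signals and were not tested. Of the 13, 6 rose and 1 fell in PN20 against PN9, where 13.5% of all genes rose and 10.8% fell. The median log2 change of the 13 was 1.08, against 0.02 over all genes. Nfkbiz, a nuclear regulator of NF-κB target genes, averaged 2770 ± 1161 at PN20 and 507 ± 35.0 at PN9 (SD, n = 3 each), 5.05-fold higher (adjusted p = 0.00196, limma). Tnfaip3, an inhibitor of NF-κB signalling, was 4.00-fold higher (adjusted p = 0.00263), Lcn2, a siderophore-binding antibacterial protein, 3.50-fold (adjusted p = 0.045, kept with 5 of the 12 arrays left out in turn), and Mmp3, a matrix metalloprotease, 3.19-fold (adjusted p = 0.000595). Icam1, a leukocyte adhesion molecule, fell by log2 1.42 (adjusted p = 0.00258). In PN14 against PN9, Mmp3 (5.35-fold) and Nfkbiz (2.99-fold) rose and Icam1 fell, the Nfkbiz call being kept with 5 and the Icam1 call with 7 of the 12 arrays left out in turn; none of the 13 passed in PN20 against PN14 or in Klf4CN against PN14.

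Of 8 tested genes of cytokine processing, Casp1, the caspase that matures interleukin-1β and interleukin-18, averaged 141 ± 44.2 at PN14 and 28.3 ± 6.58 at PN9 (SD, n = 3 each), 3.47-fold higher (adjusted p = 0.0201, limma). It stayed at 147 ± 34.5 at PN20. Casp1 and Nlrp10 were the 2 of the 8 to rise in PN20 against PN9, beside 13.5% of all genes. Nlrp10 averaged 5.55 ± 3.46 at PN9 (Present on 1 array) and 27.8 ± 8.40 at PN20 (Present on 3), so that its call rests on dim signals. Of 20 tested genes that carry the receptor signal, 3 rose and 2 fell in PN20 against PN9, shares near the 13.5% and 10.8% of all genes. Peli1, a ubiquitin ligase acting on the IRAK kinases, rose 2.52-fold (adjusted p = 0.00773) and Tab3, a TAK1-binding adaptor, 2.21-fold (adjusted p = 0.0119), while the adaptor Tab1 fell by log2 1.02 (adjusted p = 0.00972). Tab1 was also the only 1 of the 20 to pass in PN14 against PN9, where it fell by log2 0.99. Of 12 listed further ligands, receptors and binding proteins of the family, 8 had a probe set and 5 were tested, with no interleukin-36 ligand among these. None of the 5 passed in any of the 4 comparisons, Il18r1, the interleukin-18 receptor, and Il1rl2, the interleukin-36 receptor, among them. Il18rap and Il18bp, also of the 5, were called Present on no array.

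Of 24 listed genes linked to type 2 alarmins and the response to interleukin-33, 23 had a probe set and 14 were tested. Il4, Il5 and Il13 were not among those tested. In PN14 against PN9 3 of the 14 rose, beside 4.34% of all genes. Arg1, arginase of alternatively activated macrophages and epithelia, rose 4.77-fold (adjusted p = 0.0314, limma) and Retnla 2.70-fold (adjusted p = 0.0205). Rora, a nuclear receptor needed by group 2 innate lymphoid cells, rose 2.62-fold (adjusted p = 0.00716). Of the 14, 1 rose in Klf4CN against PN14, beside 0.0777% of all genes. This was Retnla, a secreted protein of alternatively activated macrophages and epithelia, which averaged 879 ± 257 in Klf4CN and 247 ± 81.3 in PN14 (SD, n = 3 each), 3.45-fold higher (log2 1.79 ± 0.33 SE, adjusted p = 0.0466, limma). Its call was kept under 4 of the 13 alternative settings and with 3 of the 12 arrays left out in turn: the adjusted p was 0.0882 without PN14 replicate 1, 0.308 without PN14 replicate 2, 0.192 with the actin ratio as a covariate and 0.0857 with the replicate number as a block. In PN20 against PN9 3 of the 14 rose and 1 fell, beside 13.5% and 10.8% of all genes. Those that rose were Arg1 (7.5-fold, adjusted p = 0.00258), Rora (3.04-fold, adjusted p = 0.000561) and Retnla (2.04-fold, adjusted p = 0.0339). Crlf2, the receptor subunit for TSLP, fell by log2 1.05. With the 12 arrays left out in turn, the PN14 against PN9 calls were kept 7 times for Arg1, 9 for Retnla, 9 for Casp1 and 8 for Tab1, and the PN20 against PN9 calls 8 times for Retnla and 8 for Nlrp10. Both Rora calls were lost with the mean over its probe sets in place of the brightest. Rora then had log2 0.51 (adjusted p = 0.0864, limma) in PN14 against PN9 and 0.29 (0.251) in PN20 against PN9.

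**Figure D4:**
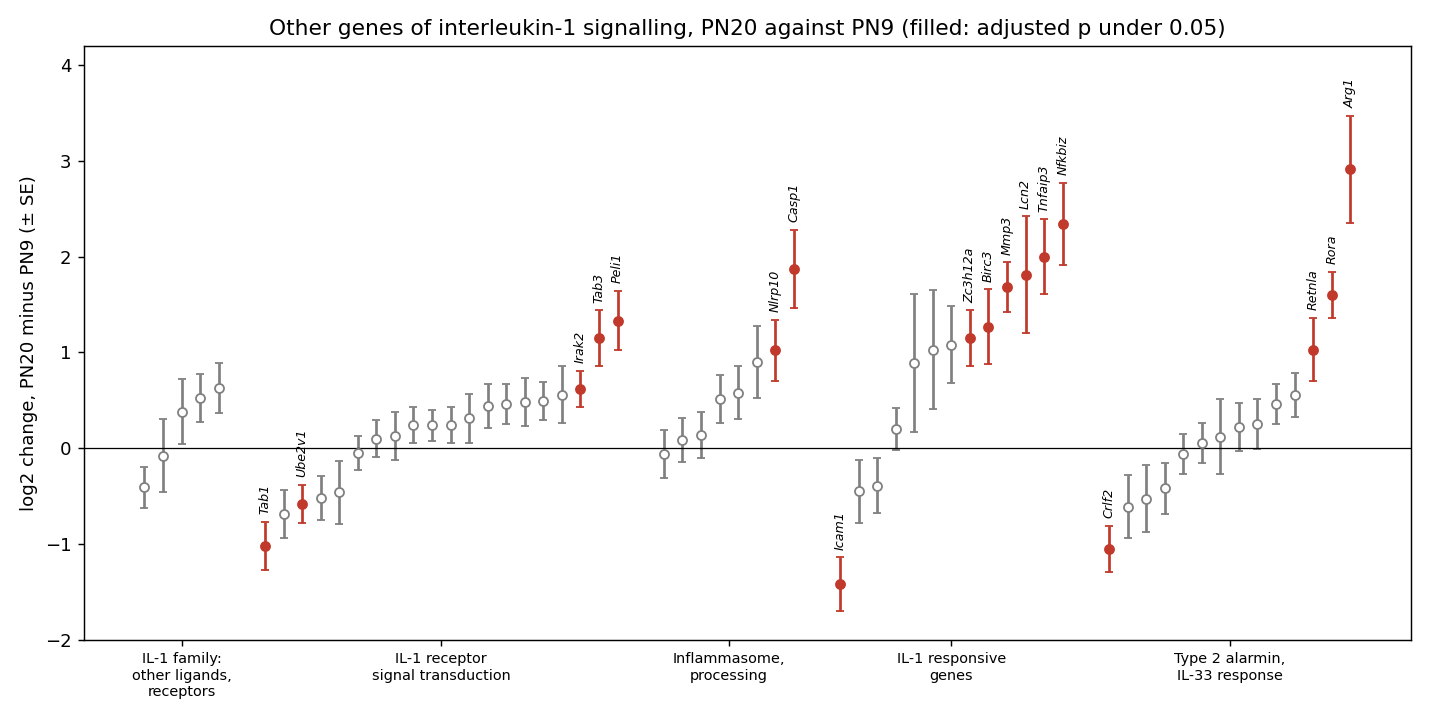
Log2 change in PN20 against PN9 (y axis, ± SE from limma) of the tested genes of 5 further lists of interleukin-1 signalling, ordered by size within a list; filled points had an adjusted p under 0.05 and are named. Of the genes shown, Arg1 has the highest value and Icam1 the lowest.

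Markers of other cells and of RNA quality also differed between the groups, in differing directions. Their part in these results was not tested except where a value is given. The epithelial markers Krt5, Krt4, Krt14, Cdh1 and Epcam were Present on all arrays. Of 18 tested epithelial and goblet cell markers 9 rose and 1 fell in PN20 against PN9, beside 13.5% and 10.8% of all genes. Their summed signals were 36962 to 62417 at PN9, 50923 to 69795 at PN14, 64671 to 67291 at PN20 and 32918 to 54551 in Klf4CN. In Klf4CN against PN14 none of the 18 rose and 1 fell (0.106% of all genes), with a median log2 of -0.40. The mucin gene Muc5ac read 5.08, 2.04 and 3.20 in Klf4CN, Present on no array, against 1064, 883 and 515 at PN14. Krt13 also averaged lower in Klf4CN (734 against 2059), whereas Epcam averaged higher (1793 against 752). Of 16 fibroblast markers 11 fell in PN20 against PN9 and of 13 endothelial and mural markers 8 fell, beside 10.8% of all genes. Fibroblast markers summed to 77049 to 104112 at PN9, 64098 to 76468 at PN14, 48095 to 50860 at PN20 and 62656 to 85357 in Klf4CN. Endothelial and mural markers summed to 11853 to 16323 at PN9, 10089 to 12859 at PN14 and 5167 to 6920 at PN20. Pecam1 had no Present call. Myeloid markers summed to 2781 to 2998 at PN9, 3698 to 4779 at PN14, 2654 to 3443 at PN20 and 4308 to 7145 in Klf4CN, where none of 15 passed. Of these 15, Lyz2, Itgam and S100a8 rose in PN14 against PN9 (4.34% of all genes), and S100a8 and Tyrobp fell in PN20 against PN14 (0.678%). Skeletal muscle markers summed to 439 to 14791 at PN9, 20057 to 32648 at PN14 and 3893 to 16618 at PN20. In PN14 against PN9 5 of 14 rose (median log2 2.34), beside 4.34% of all genes, and none passed in PN20 against PN14 (median log2 -1.86). Markers of mast cells, which are known to carry ST2, summed to 670 to 1070 in Klf4CN and 588 to 762 in PN14. Fcer1a, Mcpt4 and Hdc were Present on no array. Much of the sum was Kit, which averaged 591 in Klf4CN and 383 in PN14, and Hdc also read higher (42.7 against 6.71). Cpa3 (79.2 against 104) and Cma1 (77.2 against 92.5) read lower in Klf4CN. The median log2 difference of the 7 tested markers was -0.09, and none passed there.

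The third Klf4CN array was the lowest of its group for 6 of the 8 genes. Without it, 3 of 8 genes (Il33, Il1rn and Il1r1) rose in Klf4CN against PN14, where 0.374% of all genes were called higher.

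The 3′ to 5′ signal ratio of the β-actin control, which is higher for shortened RNA, was 24.2 to 46.8 at PN9, 11.1 to 24.9 at PN14, 9.76 to 16.5 at PN20 and 5.40 to 17.5 in Klf4CN. With this ratio as a covariate, Il33 still passed in PN20 against PN9 (adjusted p = 0.00439) and in PN20 against PN14 (adjusted p = 0.0259, limma). No other call among the 8 genes held. Il33 had log2 0.77 (adjusted p = 0.152) in PN14 against PN9 and 1.13 (0.169) in Klf4CN against PN14, and Il18 had 1.07 (0.118) in PN14 against PN9. In PN20 against PN9 Il18 had 0.91 (0.191), Il1rn 1.18 (0.158) and Il1a 1.81 (0.19). The same covariate removed the PN20 against PN9 calls in the further lists of interleukin-1 signalling, except those of Icam1 and Rora. The lost calls had adjusted p from 0.0532 for Mmp3 to 0.641 for Lcn2 (limma). Of the calls of these lists in PN14 against PN9, only that of Mmp3 was kept.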

How the data were processed

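The authors scanned 12 Affymetrix arrays and deposited signal intensities from GCOS 1.4, with the 2% trimmed mean of each array at 150, per the deposited readme and a check of the values. The authors also deposited Present calls and, per the readme, a score that sums 9 pairwise comparisons between groups. The depth of arrays is their signal over background, given by the Present calls.

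Each array was scaled to a common median of the probe sets kept, those above the 40th percentile of their own array on at least 3 arrays (30600 probe sets, 14163 genes). Log2(signal + 16) was fitted with limma 3.58.1 in R 4.3.3 (lmFit, eBayes with trend) over all 4 groups, with each gene by its brightest kept probe set and p-values adjusted by the Benjamini-Hochberg method over all genes at 0.05. The fit was tested on simulated data. Fold changes come from log2(signal + 16) values, so those of dim genes are understated.

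Of 45101 probe sets, 34958 had 1 symbol, 932 several and 9211 none. Named genes were the members, up to 4 passing genes per list and comparison, and for Il33 the 8 and for other passing members the 3 nearest genes; markers are named from their lists. Members and lists were chosen with earlier results of these data known. Promoter sequences are RefSeq's. Alternatives were 13 settings and leaving out each array.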

Additional observations from a re-analysis of the deposited data

How the results depend on the processing

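Under the 13 alternative settings, Il33 kept its direction in all 4 comparisons and passed under 12 in PN14 against PN9, 12 in PN20 against PN14, 13 in PN20 against PN9 and 7 in Klf4CN against PN14. Its values below the threshold of the test were log2 0.77 with the actin ratio as a covariate in PN14 against PN9 (adjusted p = 0.152, limma), and 1.35 with arrays scaled by the median of all probe sets in PN20 against PN14 (0.0534). They were, in Klf4CN against PN14, 1.30 with the median of all probe sets (0.18), 1.33 with no filter (0.0519), with each probe set on its own (0.0688), with no variance trend (0.0614) and with only the groups compared (0.323), and 1.13 with the actin ratio (0.169). Of the 8 genes, 2 passed in PN14 against PN9, 4 with only those groups and 0 with the actin ratio. In PN20 against PN14 1 passed, 0 with the median of all probe sets and 2 with only those groups. In PN20 against PN9 4 passed, and in the F test 4, each 1 with the actin ratio. In Klf4CN against PN14 1 passed, and 0 under the settings just listed for Il33. The cause of these losses was not tested.

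Over all genes, 992 passed in PN14 against PN9, 569 with the median of all probe sets and 131 with the actin ratio. In PN20 against PN14 191 passed, 100 with the median of all probe sets, 112 with no filter, 106 with the mean over probe sets, 119 with no trend, 1137 with only those groups and 100 with the actin ratio. In PN20 against PN9 3443 passed, 5210 with each probe set on its own and 576 with the actin ratio. In Klf4CN against PN14 26 passed, 10 with the median of all probe sets, 17 with each probe set, 6 with only those groups and 5 with the actin ratio. In the F test 2850 passed, 4278 with each probe set and 426 with the actin ratio. The share of higher calls was 62.0% in PN14 against PN9, against 48.1% as deposited and 74.9% with the median of all probe sets. It was 49.7% in PN20 against PN14 and 28.0% with that median, 55.5% in PN20 against PN9 and 40.7% as deposited, and 42.3% in Klf4CN against PN14, 30% with that median and 0 of 5 calls with the actin ratio.

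Leaving out each array in turn gave 297 to 2075 genes in PN14 against PN9, 2 to 725 in PN20 against PN14, 2090 to 4336 in PN20 against PN9, 4 to 71 in Klf4CN against PN14 and 1602 to 4073 in the F test, with the highest counts without Klf4CN replicate 3. The members passing were 0 to 3, 0 to 2, 4 to 5, 0 to 3 and 4 to 5. The log2 change of Il33 ranged from 0.96 to 1.09, 1.35 to 1.53, 2.39 to 2.56 and 1.07 to 1.62 in the order of the comparisons, and passed with 8, 8, 12 and 1 of the 12 arrays left out. In PN20 against PN9, the calls of Il33, Il1rn, Il1a and Il18 held without any 1 array. Genes whose direction turned passed in none of these: Il1b ranged from -0.18 to 0.38 in PN14 against PN9, -0.11 to 0.12 in PN20 against PN14 and -0.17 to 0.39 in PN20 against PN9. Il1r2 ranged from -0.40 to 0.84 in PN20 against PN14 and -0.03 to 1.13 in Klf4CN against PN14. Il18 ranged from -0.20 to 0.18 and Il1rap from -0.05 to 0.17 in PN20 against PN14. In Klf4CN against PN14 Il1a ranged from -0.35 to 0.81 and Il1rap from -0.10 to 0.20.

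Other settings turned the sign only of differences that did not pass. In PN20 against PN14, Il1r2 was -0.02 with an offset of 1, -0.03 as deposited and with the median of all probe sets, and -0.01 after quantile normalization. Il1b was there -0.04 as deposited, -0.05 with that median, -0.02 after quantile normalization and -0.06 with the actin ratio, and Il1rap -0.12 with the mean over probe sets and -0.10 with the actin ratio. In Klf4CN against PN14, Il1a was -0.18 with an offset of 1, -0.01 as deposited, -0.02 after quantile normalization and -0.34 with the actin ratio, and Il1rap -0.15 with that ratio. The actin ratio also gave Il1r1 -0.13 and Il1rap -0.15 in PN14 against PN9, and Il1b -0.03 and Il1rap -0.24 in PN20 against PN9.

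Replicate numbers did not pair the arrays: deviations of same-numbered arrays correlated from -0.234 to 0.265 over 18 pairs and those of other pairs from -0.293 to 0.33, and in 11 of 36 cases an array correlated best with its own number. With the replicate number as a block, 102 genes passed in PN20 against PN14, and the members that passed numbered 2, 1, 4 and 1 in the 4 comparisons, as without it. Dim genes (Il1a, Il1b and the fainter Il1rn and Il1rap probe sets) are limited by their signal over background.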
